A study of Mus musculus with 8 samples.

Results

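The genes described here encode the ion, sugar, phosphate and organic-ion carriers of the kidney tubule and the subunits of the vacuolar proton pump (V-ATPase). They were taken by symbol as every autosomal protein-coding mouse gene beginning with Slc4a (bicarbonate), Slc5a (sodium-sugar and related), Slc9a (sodium-proton exchange), Slc12a (cation-chloride), Slc22a (organic ions), Slc34a (phosphate) or Atp6v, which gave 93 of 20665 autosomal coding genes. The symbol rule also takes in a few proteins that carry nothing themselves, such as the adaptors encoded by Slc4a1ap, Slc9a3r1 and Slc9a3r2. By what is known of adult kidney, 25 of the genes were classed as nephron-segment genes, 28 as ubiquitous genes and 40 as others.

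The study measured DNA methylation by reduced representation bisulfite sequencing, which reads mostly CpG-rich fragments, in nephron progenitor cells of mouse embryonic kidney. In the calorie-restricted group (CRD), pregnant dams received 70% of the average daily intake once a day, and in the unrestricted group (URD) pregnant dams had no limit on food. There were 4 libraries in each group, all from E17.5. Every embryo of both groups was heterozygous for the Six2-EGFP/Cre transgene, from a transgenic father and a wild-type dam of the outbred CD1 stock, and the cells were sorted as GFP-positive, so the sample is what the Six2 promoter of that transgene marks. The embryos' sexes were not separated. Whether each library came from an embryo, a litter or a pool is not stated in the labels. The p-values therefore cannot be said to measure the spread between animals or litters. They rest on the counting error of reads and on the spread between these libraries, which may be partly technical.

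As background, nephron progenitors are the undifferentiated cells from which the epithelium from podocyte to distal tubule arises, and they switch on the carriers of the mature tubule only after they have become epithelium. The segments divide the work of reabsorption: the proximal tubule takes up sugar, phosphate and bicarbonate and secretes organic ions, the thick ascending limb and the distal convoluted tubule take up salt, and intercalated cells of the collecting duct, which descend from the ureteric bud and not from these progenitors, move acid and base. Housekeeping members such as the common V-ATPase subunits, which acidify lysosomes, work in every cell. CpG-rich promoters are usually free of methylation in all tissues whether or not the gene is active, whereas methylation at CpG-poor promoters more often differs between cell types.

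The libraries held 16045992 to 32054622 reads in CRD and 20863822 to 37305007 in URD, counted once for each cytosine they cover. Levels were read at 441994 CpGs on autosomes, each covered by 10 or more reads in every one of the 8 libraries, where the mean methylation level was 16.2% ± 0.128 in CRD and 16.2% ± 0.105 in URD (SD, n = 4 each). Reads of CRD replicates 1 and 2 leaned towards unmethylated CpGs: their read-weighted level was lower than their unweighted level by a difference of -2.24 and -3.28 percentage points, against -0.575 to 0.817 in the other 6 libraries. Of 7 progenitor markers, the start windows of Six2, Sall1, Pax2 and Wt1 could be measured and lay at 0 to 0.101% in CRD and 0.0244 to 0.0599% in URD. For 5 endothelial and 4 blood markers no start window reached the depth required, so the purity of the sort could not be checked in this way.

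The promoters of the nephron-segment genes were poor in CpGs. In the 300-base promoter sequences of RefSeq (GRCm38.p6, 250 bases before to 50 after the annotated start), the 18 nephron-segment genes with an entry had a median of 3.5 CpGs, the 20 ubiquitous genes 20.5, the 35 others 6 and all 16457 autosomal coding genes 14. The promoters with at most 10 CpGs numbered 14 of 18 among nephron-segment genes and 4 of 20 among ubiquitous genes, against 43.3% of all genes. The motif CCGG, which reads the same on both strands and contains a CG, occurred in 38.9% of nephron-segment promoters, 85% of ubiquitous promoters, 57.1% of the others and 63.3% of all. The 5 promoters printed here show this contrast, and their levels are given further on. Slc12a1 encodes the sodium-potassium-chloride carrier NKCC2 of the thick ascending limb and Slc12a3 the sodium-chloride carrier NCC of the distal convoluted tubule, and both have few CpGs and no CCGG. Slc4a4 encodes the bicarbonate carrier NBCe1 and Slc9a3 the sodium-proton exchanger NHE3, and these proximal tubule genes have CpG-dense promoters at the starts used here. For Slc4a4, 2 starts are listed and only the more upstream one was used. Which of them serves the tubule was not examined, here or in the windows and counts that follow. Slc5a3, which encodes the inositol carrier SMIT1 of many cell types, is the ubiquitous example. The letters are those of the reference strain, from which CD1 mice can differ, and capitals mark CG.
Slc12a1, chr2:125152350-125152649, plus strand: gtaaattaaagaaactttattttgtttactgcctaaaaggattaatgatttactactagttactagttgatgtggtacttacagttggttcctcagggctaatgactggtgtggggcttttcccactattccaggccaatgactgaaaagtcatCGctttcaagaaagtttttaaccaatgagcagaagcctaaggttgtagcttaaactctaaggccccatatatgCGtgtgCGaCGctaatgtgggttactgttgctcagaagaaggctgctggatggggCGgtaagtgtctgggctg
Slc12a3, chr8:94328958-94329257, plus strand: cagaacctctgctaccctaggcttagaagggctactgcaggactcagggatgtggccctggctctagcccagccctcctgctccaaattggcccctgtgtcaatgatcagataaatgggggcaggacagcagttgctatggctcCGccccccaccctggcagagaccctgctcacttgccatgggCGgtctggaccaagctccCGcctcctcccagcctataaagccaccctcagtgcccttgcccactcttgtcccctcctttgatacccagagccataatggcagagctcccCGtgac
Slc4a4, chr5:88887010-88887309, plus strand: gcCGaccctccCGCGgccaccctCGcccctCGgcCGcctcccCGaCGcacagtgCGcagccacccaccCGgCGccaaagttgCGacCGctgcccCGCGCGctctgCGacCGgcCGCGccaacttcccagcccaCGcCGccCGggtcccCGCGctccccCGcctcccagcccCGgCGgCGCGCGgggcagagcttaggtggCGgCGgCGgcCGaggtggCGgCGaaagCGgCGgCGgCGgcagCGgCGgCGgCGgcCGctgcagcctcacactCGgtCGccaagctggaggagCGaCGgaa
Slc9a3, chr13:74121163-74121462, plus strand: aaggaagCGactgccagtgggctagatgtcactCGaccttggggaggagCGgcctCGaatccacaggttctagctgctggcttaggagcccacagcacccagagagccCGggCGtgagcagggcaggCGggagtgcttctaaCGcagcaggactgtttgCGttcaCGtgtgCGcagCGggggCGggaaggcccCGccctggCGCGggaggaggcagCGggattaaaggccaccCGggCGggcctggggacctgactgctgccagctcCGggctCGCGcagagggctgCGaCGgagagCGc
Slc5a3, chr16:92058072-92058371, plus strand: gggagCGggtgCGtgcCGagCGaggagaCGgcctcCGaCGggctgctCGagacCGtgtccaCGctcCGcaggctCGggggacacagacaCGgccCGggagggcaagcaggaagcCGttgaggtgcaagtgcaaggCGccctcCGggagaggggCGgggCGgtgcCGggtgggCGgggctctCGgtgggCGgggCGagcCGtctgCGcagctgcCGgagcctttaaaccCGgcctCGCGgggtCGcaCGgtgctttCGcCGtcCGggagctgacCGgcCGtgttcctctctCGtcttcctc
These sequences hold 5, 4, 50, 25 and 38 CpGs in the order shown.

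**Figure D1:**
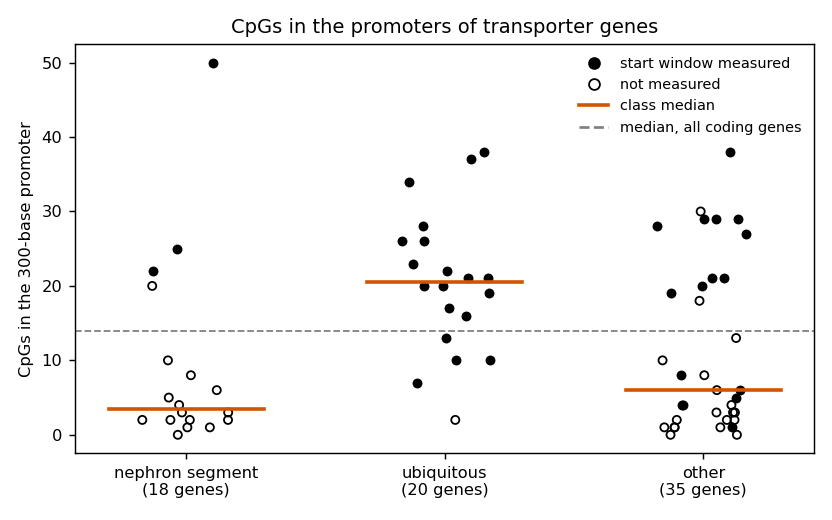
The vertical axis counts CpGs in the 300-base RefSeq promoter of each transporter gene, by class. Filled points are genes whose start window was measured in all 8 libraries and open points are those that were not. The orange bars are class medians (3.5, 20.5 and 6) and the dashed line is the median of all coding genes (14).

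The CpG content went with what the assay could read. The 93 genes, with 5 kb at each end, held 1938 of the 441994 shared CpGs, and 163 of the 36513 tiles of 1 kb with at least 3 such CpGs overlapped them. A start window (1000 bp before to 500 bp after the annotated start, with at least 3 shared CpGs) was measured for 3 of 25 nephron-segment genes (12%), 26 of 28 ubiquitous genes (92.9%) and 19 of 40 others, against 51.2% of all coding genes. The 3 nephron-segment genes were Slc4a4, Slc9a3 and Atp6v1c2, a V-ATPase subunit gene of lung and kidney. The ubiquitous genes without a window were Slc4a7 and Atp6v0a2. No shared CpG was found in or near 19 genes. Of these, 6 were nephron-segment genes, among them Slc5a8, Slc5a12, Slc22a6, Slc22a8 and Atp6v1g3. The other 13 were Atp6v0e2, Atp6v1e2, Slc5a9, Slc5a11, Slc9a4, Slc22a14, Slc22a16, Slc22a20, Slc22a22, Slc22a26, Slc22a28, Slc22a30 and Slc34a2. The organic anion carriers OAT1 and OAT3, encoded by Slc22a6 and Slc22a8, therefore have no value here.

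Where a start window was measured at this depth, it was almost always unmethylated, in both diets and in all classes. The 3 nephron-segment windows averaged 0.205% ± 0.0952 in CRD and 0.178% ± 0.173 in URD, and the 26 ubiquitous windows 0.0817% ± 0.0173 in CRD and 0.0633% ± 0.0250 in URD (SD over 4 libraries each). Across all 10582 measured start windows the median was 0.0680%, and 97.1% lay below 20%. The window of Slc9a3, with 18 shared CpGs, was at 0.105, 0.365, 0.376 and 0.477% in CRD and at 0, 0.0812, 0.790 and 0.361% in URD. The window of Slc4a4, with 12 shared CpGs, was at 0.273, 0, 0.189 and 0.446% in CRD and at 0, 0, 0.169 and 0.143% in URD. The groups overlapped at both genes.

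The ubiquitous genes formed a narrow band. All 26 windows were below 1%, and 7 of them had no methylated read in any library. The 13 V-ATPase subunit genes among them averaged 0.0717% ± 0.0295 in CRD and 0.0508% ± 0.0222 in URD, and the 13 carriers and adaptors 0.0916% ± 0.0390 in CRD and 0.0757% ± 0.0574 in URD. Atp6v0c, which encodes the membrane ring of the pump, was at 0.817, 0.372, 0.531 and 0.224% in CRD and at 0.762, 0, 0 and 0.498% in URD. Atp6v1a, which encodes the catalytic subunit, averaged 0.0543% ± 0.0649 in CRD and 0.0725% ± 0.0555 in URD. Slc4a2, the anion exchanger AE2, averaged 0.0610% ± 0.122 in CRD and 0.0364% ± 0.0728 in URD. Slc12a2, the housekeeping relative NKCC1 of the tubular NKCC2, averaged 0.142% ± 0.184 in CRD and 0.0204% ± 0.0409 in URD. Slc5a3, whose promoter is printed above, averaged 0.0878% ± 0.0711 in CRD and 0.0341% ± 0.0681 in URD. All of these groups overlapped, and such levels rest on a handful of methylated reads. The methylated share at mitochondrial cytosines was 0.0221 to 0.0854% across the 8 libraries. Window levels of that size cannot be told apart from background.

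Among the 19 other windows a single one exceeded 20%. Slc5a4a, which encodes a sodium-sugar carrier relative, was at 71.7, 66.7, 74.1 and 71.9% in CRD and at 62.7, 81.2, 72.1 and 70.3% in URD, over 3 CpGs. Slc4a10, which encodes a bicarbonate carrier of neurons, followed at 18.2% ± 7.03 in CRD and 18.2% ± 4.45 in URD. Slc22a3, the organic cation carrier OCT3, lay at 3.56% ± 0.645 in CRD and 4.94% ± 1.91 in URD. Slc5a5, the iodide carrier of the thyroid, lay at 2.21% ± 0.597 in CRD and 1.86% ± 0.404 in URD. Slc5a7, the choline carrier of cholinergic neurons, was at 4.85, 5.29, 4.26 and 5.77% in CRD and at 3.37, 3.98, 3.28 and 3.17% in URD, with no overlap between groups. Its difference of 1.59 percentage points had an unadjusted p of 0.0921 and an adjusted p of 0.672 in the logistic model of the diet comparison.

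The 10-read minimum left out the CpG-poor starts, so the windows were also summed over all CpGs at any depth, asking only for 10 reads in the window in each library. This reading was added after the first one had been seen. It measured 10 of 25 nephron-segment genes, 27 of 28 ubiquitous genes and 22 of 40 others, against 63.7% of all coding genes. Of the 10 nephron-segment windows, 5 lay above 50%, none of the 27 ubiquitous windows did, and 4.98% of all genes' windows did. All 27 ubiquitous windows lay below 20%, as did 4 of the 10 nephron-segment windows and 92.5% of all windows. The highest ubiquitous window, Atp6v0a2, rested on 29 to 160 reads and averaged 3.94% ± 4.97 in CRD and 2.72% ± 1.82 in URD. Slc4a2, near 0 over its 23 shared CpGs, averaged 1.96% ± 0.860 in CRD and 2.44% ± 0.588 in URD over 61 CpGs and 637 to 1330 reads a library at any depth.

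Slc12a3 had the highest start window of the nephron-segment genes. It was at 91.8, 96.7, 87.8 and 84.8% in CRD and at 93.3, 91.7, 81.8 and 79.7% in URD, over 12 CpGs and 30 to 96 reads a library. Slc12a1 was at 87.8, 82.4, 84.6 and 89.7% in CRD and at 85.7, 84.1, 80.9 and 70.5% in URD, over 6 CpGs and 13 to 151 reads. Both windows were methylated in every library, and the groups overlapped at both. Slc22a2, the basolateral organic cation carrier OCT2, averaged 54.6% ± 8.92 in CRD and 57.9% ± 18.8 in URD. Slc5a1, the glucose carrier SGLT1, averaged 18.1% ± 4.31 in CRD and 21.9% ± 4.50 in URD. For Slc5a2, the main renal glucose carrier SGLT2, and for Slc22a7, the organic anion carrier OAT2, no annotated start was at hand and the gene end with more CpGs was read instead. That window averaged 71.3% ± 8.21 in CRD and 72.3% ± 14.8 in URD at Slc5a2, and 65.8% ± 16.0 in CRD and 63.1% ± 15.2 in URD at Slc22a7, and it may not be the promoter.

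The remaining 4 nephron-segment windows were almost free of methylation. Slc9a3 averaged 0.353% ± 0.0774 in CRD and 0.327% ± 0.312 in URD, Atp6v1c2 0.159% ± 0.136 in CRD and 0.319% ± 0.327 in URD, and Slc4a4 0.0977% ± 0.0815 in CRD and 0.125% ± 0.0697 in URD. Slc5a8, the monocarboxylate carrier SMCT1, had no methylated read among 304 in CRD and 366 in URD, counted once for each CpG they cover. Taken as independent, these counts allow levels of up to 0.987% in CRD and 0.820% in URD by counting error alone. The limits are higher where a read covers several of the window's 21 CpGs. The split followed the promoter's CpGs. All 4 measured nephron-segment promoters with at least 20 CpGs lay below 20%, as did 99.3% of all measured promoters of that density. The 4 measured ones with at most 10 CpGs lay between 20.0 and 88.4%, 3 of them above 50%, and 23.1% of all 1618 measured promoters that poor in CpGs lay above 50%. The windows of the 3 measured ubiquitous promoters with at most 10 CpGs lay between 0.0634 and 0.243%. These windows held 103, 45 and 30 CpGs (Atp6v1a, Slc4a1ap and Atp6v0a1). Those of Slc12a1, Slc12a3, Slc22a2 and Slc5a1 held 6, 12, 14 and 27, so the windows were not matched in CpGs. Tiles in the windows of Atp6v1a and Slc4a1ap also overlapped the start windows of Naa50 and Supt7l. Only 28.6% of the CpG-poor nephron-segment promoters could be measured, so these counts do not describe the class as a whole. No test was made of a difference between the classes.

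**Figure D2:**
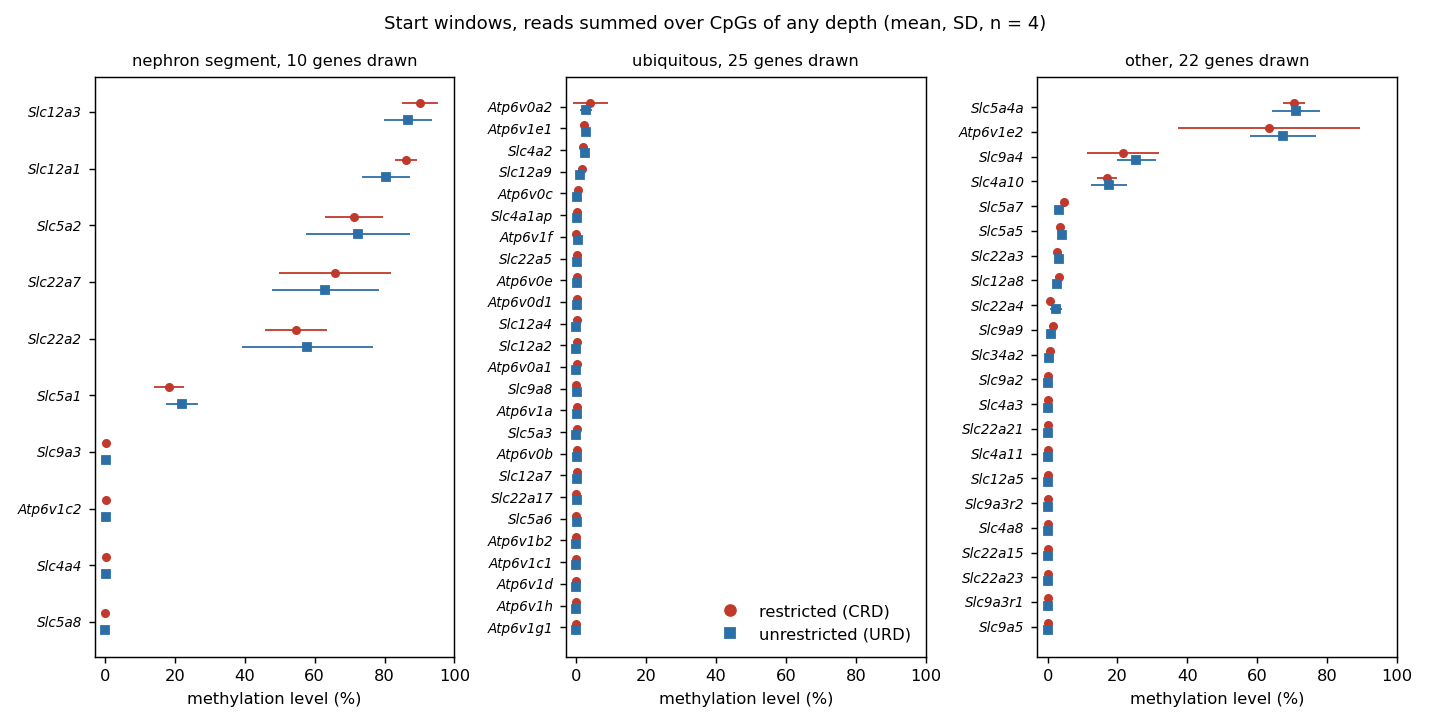
Each row is a start window, its methylation level in percent on the horizontal axis, summed over CpGs of any depth. Circles are CRD and squares URD, as means with SD over 4 libraries each. Nephron-segment genes spread from 0% to Slc12a3 at 90.3% in CRD and 86.6% in URD, the ubiquitous genes drawn (25 of the 27 measured) stay below 20%, and circles and squares lie close together.

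Away from start windows, the nephron-segment genes were mostly methylated. Of the 31 tiles that overlapped 16 of these genes or their 5 kb flanks, 5 lay in the gene's own start window, 8 in the start window of a neighbouring gene (Tubb4b, Rnf224, Ankhd1 or Fam83g) and 18 outside every start window. The 18 averaged 50.9% ± 0.970 in CRD and 52.0% ± 0.410 in URD, with 5 of 18 below 20%. The matching 20 tiles of ubiquitous genes averaged 38.7% ± 0.528 in CRD and 39.6% ± 0.244 in URD, with 11 of 20 below 20%. Of all 14672 tiles in coding genes or their 5 kb flanks and outside every start window, 49.6% lay below 20%. These sets can hold starts that were not listed or had no measured window. Among the low ubiquitous tiles, a tile of Slc4a7 (0.127% in CRD, 0.0487% in URD) held an outer end of its gene. So did a tile of Atp6v0a2 (2.95% in CRD, 2.26% in URD). How many such tiles each class holds was not counted, so the classes may differ partly in this. The difference between the diets was -1.05 percentage points for nephron-segment genes and -0.902 for ubiquitous genes, and the libraries of the groups overlapped in both classes. These means were not tested.

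The highest single tiles belonged to proximal tubule genes, whose 21 tiles averaged 35.5% in CRD and 36.4% in URD, with 11 below 20%. The 2 tiles of the distal convoluted tubule averaged 65.3% in CRD and 64.0% in URD. The 7 of the collecting duct averaged 8.76% in CRD and 9.04% in URD. At the proximal tubule and the collecting duct these means include start windows, both own and of neighbouring genes. Among the collecting duct tiles, only the body tile of Atp6v1c2 (60.5% in CRD, 62.4% in URD) lay in its gene and outside start windows. These means therefore do not rank the segments. A body tile of Slc5a1 averaged 97.0% ± 1.01 in CRD and 95.8% ± 2.49 in URD, and a flank tile of Slc22a13, the urate and nicotinate carrier OAT10, averaged 96.0% ± 1.36 in CRD and 93.9% ± 2.30 in URD. Slc34a1, the main renal phosphate carrier NaPi-IIa, has 2 CpGs in its promoter and no measured window. Its body tile, 8852.5 bp past the start at chr13:55408001-55409000 (mm10), was at 86.9, 88.9, 87.5 and 84.8% in CRD and at 92.0, 89.2, 92.2 and 88.4% in URD. The groups overlapped by a narrow margin, with an unadjusted p of 0.144 and an adjusted p of 0.773. Slc34a3, the phosphate carrier NaPi-IIc, was read only in its neighbours' start windows, at 69.8% ± 4.55 in CRD and 69.6% ± 3.98 in URD beside Rnf224 and at most 0.0494% beside Tubb4b. The flank tile of Slc5a2 averaged 74.0% ± 7.70 in CRD and 71.7% ± 2.87 in URD. Slc4a4 changed along its length: 95.8% ± 1.63 in CRD and 96.4% ± 1.54 in URD in the tile upstream of the start window, at most 0.256% in the window's tiles and 6.77% ± 4.68 in CRD and 6.72% ± 1.79 in URD further into the gene. Slc22a7 had body tiles at 22.2% ± 5.57 in CRD and 23.6% ± 1.61 in URD, and at 1.13% ± 1.09 in CRD and 2.37% ± 1.77 in URD. The urate carrier gene Slc22a12 was read only in its flank, inside the Nrxn2 gene, at 0.767 to 0.949% in either group.

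In the distal segments, the Slc12a3 body tile was at 76.7, 88.1, 72.9 and 90.2% in CRD and at 78.1, 76.3, 69.4 and 75.3% in URD, over 3 CpGs. Its flank tile, inside the Nup93 gene, averaged 48.7% ± 8.41 in CRD and 53.2% ± 6.81 in URD. The Slc12a1 body tile was at 61.7, 56.9, 52.1 and 48.6% in CRD and at 65.0, 52.6, 52.4 and 52.2% in URD. At all of these the groups overlapped, and URD replicate 1 stood above its group at Slc12a1. Among the collecting duct genes, a body tile of Atp6v1c2 averaged 60.5% ± 2.68 in CRD and 62.4% ± 2.57 in URD, and the flank of Atp6v1b1, the pump subunit of intercalated cells, averaged 0.641% ± 0.539 in CRD and 0.498% ± 0.216 in URD, inside the Ankrd53 gene. Atp6v0a4, Slc4a1 and Atp6v0d2 had shared CpGs but no tile. The 5 CpGs of Atp6v0a4 together averaged 68.1% ± 7.18 in CRD and 76.6% ± 4.00 in URD. The 3 CpGs of Slc4a1, the anion exchanger AE1 of red cells and type A intercalated cells, averaged 85.3% ± 2.57 in CRD and 87.0% ± 3.21 in URD. The 2 CpGs of Atp6v0d2 averaged 0% in CRD and 1.15% ± 1.49 in URD, over 24 to 72 reads a library. The tiles of Slc4a9, the exchanger AE4 of type B intercalated cells, all lay in the Ankhd1 start window and reached at most 0.0665%.

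**Figure D3:**
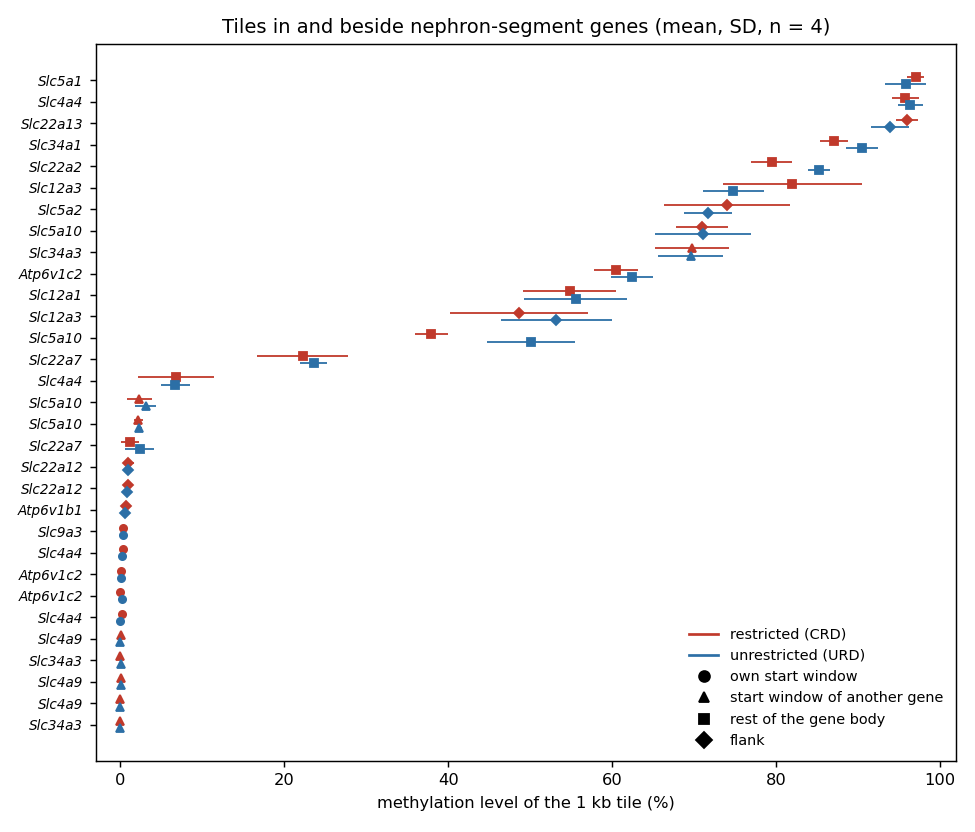
Each row is a 1 kb tile in or beside a nephron-segment gene, with its methylation level in percent on the horizontal axis. Colours give the diet and symbols where the tile lies, as means with SD over 4 libraries each. Tiles in own start windows lie near 0 and the gene bodies reach 97.0% in CRD and 95.8% in URD at Slc5a1.

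The question put by the design is whether restriction of the dams changed methylation in the progenitors, and for these genes no tile, start window or CpG passed the test. The test was a logistic model of methylated and unmethylated reads with a quasi-likelihood F test and Benjamini-Hochberg adjustment over all units of the genome, at an adjusted p under 0.05. It called 0 of 146 testable transporter tiles, where 0.0177% of all 33897 tiles were called. It called 0 of 38 testable start windows (0.106% of all 9441) and 0 of 774 testable CpGs (0.0997% of all 191637). The smallest adjusted p among the transporter units was 0.427 for tiles, 0.672 for windows and 0.439 for CpGs. At an unadjusted p under 0.05 there were 7 tiles (4.79% of the 146, 6.32% of all), 1 window (2.63% of the 38, 6.92% of all) and 36 CpGs (4.65% of the 774, 5.62% of all), which is near or under the share in the whole genome. Among simulated units without a diet effect, such p-values came somewhat too often for tiles and windows with levels near 0. At those levels they are therefore read with reserve, although the simulation was not fitted to the spread of these data. With limma on M-values 0 transporter units and 0 units of the whole genome were called. At an unadjusted p under 0.05 limma gave 12 of the 146 tiles, 4 of the 38 windows and 44 of the 774 CpGs. The share of all units at that threshold is not given for limma, so these counts cannot be judged against the whole genome. edgeR called 1 transporter tile, in Slc22a3, of 110 tiles in all, and 0 windows and 0 CpGs.

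The differences were small. The median difference of the tested transporter tiles was -0.0462 percentage points, against -0.0116 over all tiles, and 83 of 146 had a lower mean in CRD (56.8%, against 51.9% of all tiles). For windows the median was 0.0188 percentage points, against -0.00498 over all, and for CpGs -0.394, against -0.143. The 4 CRD libraries lay below all 4 URD libraries at 6 of 146 tiles (4.11%, against 1.26% of all tiles) and above them at 1 (0.685%, against 0.997% of all). The lower tiles included those of Slc5a10, Slc22a2, Slc12a5, Slc4a2 and Slc9a3r1, and the higher one belonged to Slc5a7. No adjusted p among the 7 tiles was under 0.427.

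**Figure D4:**
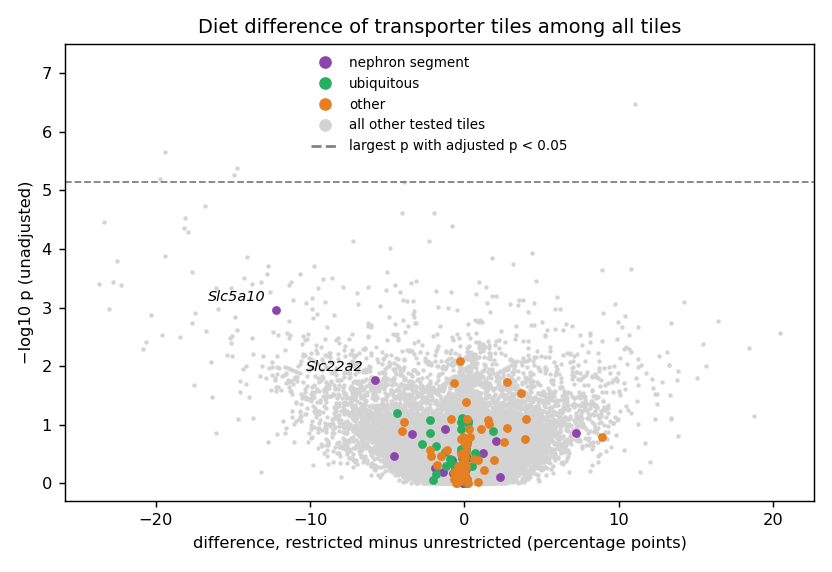
The horizontal axis is the difference in methylation level, CRD minus URD, in percentage points, and the vertical axis -log10 of the unadjusted p, for all 33897 tested tiles (grey) and the 146 transporter tiles (coloured by class). The dashed line marks the largest p that passed the adjusted threshold. No transporter tile reaches it, and Slc5a10 at -12.2 points comes nearest.

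The tile with the smallest p lay in Slc5a10, which encodes SGLT5, a sugar carrier of the proximal tubule, at chr11:61685001-61686000 (mm10), 35.3 kb into the gene from its annotated start. The same tile lies in the body of Fam83g, a neighbouring gene that overlaps Slc5a10. It was at 40.4, 35.5, 38.2 and 37.7% in CRD and at 42.3, 53.0, 53.9 and 51.2% in URD. The 4 CRD libraries lay close together and below URD, while URD replicate 1 lay nearer to CRD than to the rest of its group. The means were 37.9% ± 2.01 in CRD and 50.1% ± 5.32 in URD, a difference of -12.2 percentage points with an unadjusted p of 0.00110 and an adjusted p of 0.427. Leaving out any library kept the difference between -14.8 and -10.9, with an adjusted p of at least 0.170, and without both CRD replicates 1 and 2 it was -12.2.

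The 10 CpGs of that tile span 135 bp, and each was covered by 11 to 28 reads in every library, so the sums over the tile count the same reads once for each CpG. Of the 10 CpGs, 9 had a lower mean in CRD. The largest difference was at position 61685029, with 59.4% ± 13.3 in CRD and 82.7% ± 7.60 in URD, and 1 CpG, at 61685001, had no overlap between groups, with 7.77% ± 5.90 in CRD and 18.3% ± 1.55 in URD. The smallest adjusted p among the 10 was 0.547. The next tile, which holds 66 CpGs and the start window of Fam83g, averaged 2.20% ± 0.569 in CRD and 2.33% ± 0.339 in URD, so the intermediate levels lay just beside an unmethylated CpG-dense stretch. The tile beyond it averaged 2.30% ± 1.55 in CRD and 3.07% ± 1.25 in URD, and the flank tile inside the Grap gene 71.0% ± 3.13 in CRD and 71.1% ± 5.85 in URD. The unadjusted p at these 3 neighbours was 0.980, 0.398 and 0.979.

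Slc22a2 was the other nephron-segment gene without overlap. Its body tile at chr17:12596001-12597000, 12311.5 bp from the start, was at 82.7, 78.8, 76.6 and 79.9% in CRD and at 85.6, 83.8, 87.0 and 84.8% in URD. The difference was -5.81 percentage points over 5 CpGs, with an unadjusted p of 0.0176 and an adjusted p of 0.760. It came from neighbouring CpGs at 12596554, 12596556 and 12596559, with differences of -12.3, -11.4 and -13.2 points. The CpGs at 12596585 and 12596613 went the other way, by 2.98 and 4.83 points. Among ubiquitous genes, a body tile of Slc4a2 was at 4.01, 3.70, 2.38 and 0.980% in CRD and at 4.55, 5.95, 4.86 and 4.55% in URD, with an adjusted p of 0.773. The gap between the groups was smaller than the range within either group. Slc9a3r1, which encodes a scaffold protein that anchors NHE3 and NaPi-IIa, was at 22.0, 20.9, 20.7 and 20.5% in CRD and at 24.9, 26.1, 26.1 and 22.5% in URD, with an adjusted p of 0.773.

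**Figure D5:**
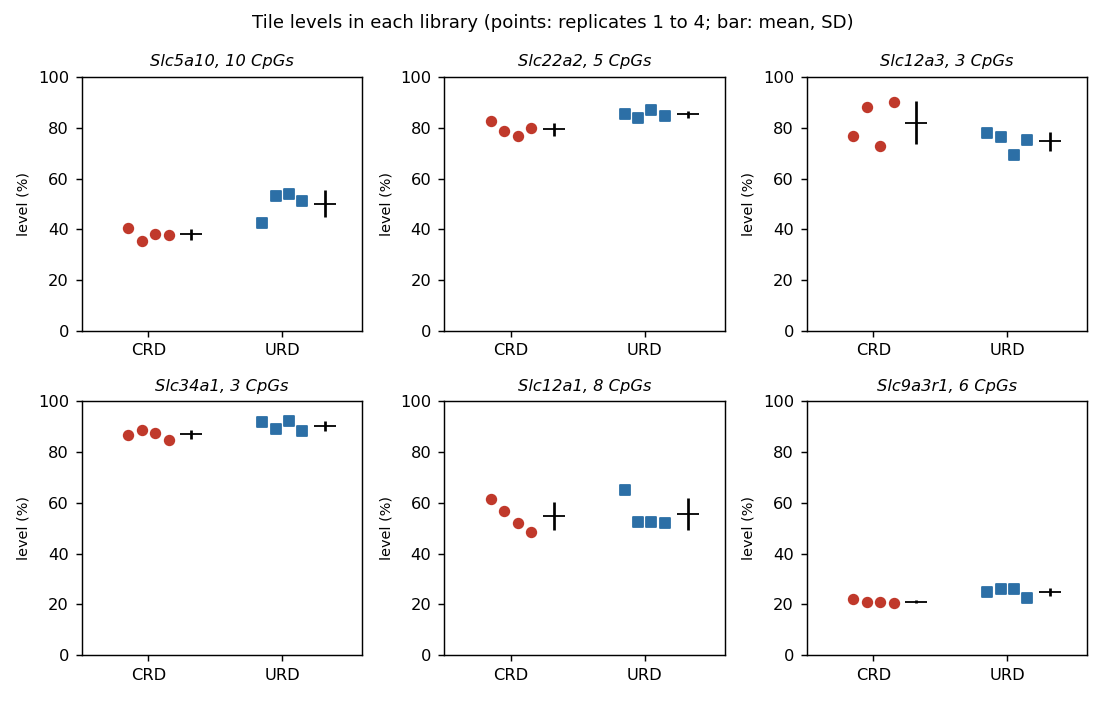
Each panel is 1 tile, with the methylation level in percent of each library (points, replicates 1 to 4) and the group's mean with SD (bar), CRD left and URD right. At Slc5a10, Slc22a2 and Slc9a3r1 the groups do not overlap, and at Slc12a3, Slc34a1 and Slc12a1 they do.

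Of the other 5 tiles with an unadjusted p under 0.05, 4 are given here. Slc12a5, which encodes the neuronal chloride exporter KCC2, was at 0.107, 0, 0 and 0.108% in CRD and at 0.202, 0.236, 0.584 and 0.327% in URD in a tile of 43 CpGs, with an adjusted p of 0.737. A library with 0 there and the fewest reads, 840 counted once for each CpG covered, allows up to 0.357% or more. Single libraries therefore do not separate. The Slc22a18 flank tile, in the start window of the imprinted gene Phlda2, was at 0.211, 0.235, 0.171 and 0.875% in CRD and at 0.450, 2.24, 0.290 and 1.30% in URD. The groups overlapped.

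On the higher side, the Slc22a3 body tile at chr17:12491001-12492000 was at 11.5, 0, 4.05 and 1.43% in CRD and at 1.04, 0.513, 3.92 and 0.379% in URD. This is the tile that edgeR called (adjusted p = 0.0451), against an adjusted p of 0.760 in the logistic model and an unadjusted p of 0.220 with limma. It rests on CRD replicate 1: the difference of 2.77 percentage points was 0.364 without that library. The start tile of Slc4a8, a bicarbonate carrier gene of neurons, was at 0.106, 0, 0.167 and 0.188% in CRD and at 0% in all 4 URD libraries. The fewest reads in any library of either group, 486 counted once for each CpG covered, would allow up to 0.617% or more at a count of 0. The groups overlapped at both genes.

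Most start windows of smallest p were near 0 in both diets. After Slc4a8 (unadjusted p of 0.0369), those with a higher mean in CRD were Slc5a7, Slc22a5, Slc12a9 and Slc12a4. Slc22a5, the carnitine carrier OCTN2, was at 0.462, 0.699, 0.226 and 0% in CRD and at 0, 0, 0.248 and 0.160% in URD, with an unadjusted p of 0.0811. Those with a lower mean in CRD included Slc22a3, Slc5a6, Slc22a21 and Slc9a8. Slc22a3 led them with an unadjusted p of 0.138, and no adjusted p of the 5 windows in either direction was under 0.672.

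By family, among start windows measured at the 10-read minimum, those of the Slc9a, Slc12a, Slc22a, Slc4a and Atp6v genes were all below 20%, and 4 of 5 Slc5a windows were. The 14 Atp6v windows averaged 0.0706% ± 0.0345 in CRD and 0.0576% ± 0.0163 in URD, the lowest of the families measured. Both means lay within the range of the libraries' mitochondrial cytosines (0.0221 to 0.0854%). No Slc34a window was measured at that minimum. Over tiles, neighbours' start windows included, the Slc34a family had the highest mean, at 39.2% ± 1.26 in CRD and 40.0% ± 1.25 in URD over 4 tiles. Of these only the body tile of Slc34a1 lay in a gene of the family. The others lay in the start windows of Tubb4b and Rnf224, so this mean does not describe the family's genes. The 37 Atp6v tiles had the lowest mean, at 9.97% ± 0.189 in CRD and 10.2% ± 0.124 in URD. The Slc5a tiles averaged 30.3% ± 0.792 in CRD and 30.7% ± 1.21 in URD, and the Slc4a tiles 29.5% ± 0.587 in CRD and 29.6% ± 0.220 in URD. In every family the mean of the tiles differed between diets by less than 1 percentage point.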

How the data were processed

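Per the labels, DNA of sorted cells was bisulfite-converted and sequenced as a reduced representation library. The tools named in the submitters' processing notes, without order or settings, are Trim Galore 0.3.3, FastQC, cutadapt, Bismark 0.13.1 and methylKit, with the mm10 build. The restriction enzyme is not given in the sources used here. For each cytosine, the deposited files give the authors' read count and percent of reads methylated and unmethylated. Methylated reads were recovered as the nearest whole number from the deposited percent and count.

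Both strands of a CpG were merged, and a CpG was kept where each of the 8 libraries had 10 or more reads. Units were 1 kb tiles and 1.5 kb start windows with at least 3 CpGs, and single CpGs. Starts came from the RefSeq promoter table (GRCm38.p6, whose coordinates are those of mm10), the most upstream start where several were listed. Of the 93 genes 73 matched it, and for the other 20 the window lay at the gene end with more CpGs. The gene table gives no exons, so tiles are described only as gene body or flank. CRD was compared with URD by a logistic likelihood-ratio F test in Python 3.11.15 (numpy 2.4.6, scipy 1.17.1), with a Pearson dispersion moderated across units and not under 1, and Benjamini-Hochberg adjustment over all autosomal units with methylated and unmethylated reads. The dispersion shared across units was 1.10 for tiles, 0.957 for windows and 0.908 for CpGs, where 1 is the counting error of reads alone. It carried a weight of 10.1, 16.7 and 38.0 degrees of freedom in that order. A read that covers several CpGs of a tile or window was counted once for each of them. The models were tested on simulated data, where unadjusted p-values under 0.05 came somewhat too often for tiles and windows with levels near 0. Alternatives were limma 3.58.1 on log2 ratios with 1 read added, edgeR 4.0.16 in R 4.3.3, at least 20 reads, no CpGs of highest coverage, 500 bp tiles, at least 5 CpGs per tile, no flanks, a narrower window, each library left out, CRD replicates 1 and 2 left out, and a replicate block.

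Reads carry no molecular identifiers in these files, so upper limits at a count of 0 (3 reads) cover counting error only. These limits take a read at each CpG as independent, so they are too low where a read covers several CpGs. Genes named are those with a call, the 5 tiles and 5 windows of smallest p in each direction, the 5 highest windows and any above 20%, and a list of 17 well-known carriers; Slc5a7, Slc9a3r1 and other members are named as parts of a count or class or after their values were seen. Results that need certain items are not reported here. The members, classes and lists were chosen with earlier results of these data known.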

Additional observations from a re-analysis of the deposited data

Results flagged for a closer look

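Among 88 groups of 4 libraries examined at the named tiles and windows, 12 had a library whose gap to its nearest neighbour exceeded Dixon's 95% critical value for 4 samples, as a share of the group's range. Chance flags about 1 group in 20 for continuous values, whereas with 3 libraries at 0 any methylated read in the other one is enough. The clearest was the Slc12a1 body tile, where URD replicate 1 was at 65.0% and the other URD libraries at 52.2 to 52.6%. At the Slc22a18 flank tile, in the start window of Phlda2, CRD replicate 4 was at 0.875% and the other CRD libraries at 0.171 to 0.235%. The other 10 were near-zero units where 1 library had a methylated read and the remaining 3 of its group had none. In CRD these were the Slc4a4 start tile (replicate 1, 0.581%) and the Slc4a2 start window (replicate 4, 0.244%). In URD replicate 2 they were the Atp6v1a tile (0.132%), the Slc12a2 tile and start window (0.0818% each, the same CpGs), the Slc4a2 start window (0.146%) and the Slc12a4 start window (0.0554%). In URD replicate 3 they were the Slc5a3 tile (0.125%) and start window (0.136%) and the Slc9a8 start window (0.175%). What set these libraries apart was not tested.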

How the results depend on the processing

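The count of called transporter tiles, windows and CpGs stayed at 0 under each alternative run except edgeR, which gave 1 tile (Slc22a3); leaving out each library in turn gave 0 to 0 for each unit. The mean start-window level of nephron-segment genes, 0.191% over 8 libraries, was 0.400% at 20 reads per CpG, where 2 windows were left, and 38.5% with CpGs at any depth, where 10 windows entered. Its range on leaving out each library was 0.162 to 0.219%. For ubiquitous genes it was 0.0725%, with a range of 0.0682 to 0.0781%, and 0.419% at any depth, where 27 windows entered. Among 43 named units, 609 alternative values gave 40 changes of sign, none of them of a called difference, and 1 call. Tile levels did not pair the libraries by replicate number: the correlation of same-numbered libraries over 5314 intermediate tiles lay between -0.0995 and 0.0299. By that measure 1 of 4 CRD libraries was closest to its own number. The methylated share at mitochondrial cytosines did split by number. It was 0.0663 and 0.0854% in CRD replicates 1 and 2, and 0.0479 and 0.0695% in URD replicates 1 and 2. In replicates 3 and 4 it was 0.0253 and 0.0242% in CRD, and 0.0221 and 0.0251% in URD. Whether libraries of the same or nearby numbers were processed together was not tested. With the replicate block, 0 units were called in the transporter genes or elsewhere. The transporter units with an unadjusted p under 0.05 then numbered 3 tiles, 0 windows and 1 CpG, without a share of all units to set beside them. Depth and CpG content limit what was read: 22 of 25 nephron-segment start windows did not have 3 CpGs with 10 reads in every library, and those read at any depth rested on as few as 13 reads.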

Other observations

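Some members outside both classes had methylated starts when CpGs of any depth were read. Atp6v1e2, which encodes a pump subunit isoform known from testis, averaged 63.5% ± 26.1 in CRD and 67.4% ± 9.37 in URD over 17 to 109 reads a library. Slc5a4a averaged 70.5% ± 3.03 in CRD and 71.1% ± 6.92 in URD. At Slc9a4, the sodium-proton exchanger NHE4 of stomach and kidney, the gene end with more CpGs averaged 21.7% ± 10.3 in CRD and 25.4% ± 5.67 in URD over 10 to 30 reads. Slc22a27, which had shared CpGs but no tile, averaged 93.8% ± 2.93 in CRD and 93.3% ± 1.78 in URD over 6 CpGs, and Slc22a19 61.2% ± 6.53 in CRD and 59.8% ± 7.45 in URD over 2. Slc4a7, a ubiquitous bicarbonate carrier gene without a measured start window, had a tile of 21 CpGs at 0.127% ± 0.162 in CRD and 0.0487% ± 0.0975 in URD. That tile holds the upstream end of the gene, with its centre at -15283.5 bp from the annotated start used here. It may therefore be a promoter and does not describe the rest of the gene body.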
